A study of Mus musculus with 15 samples.

Results

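The 38 genes described here are protein-coding members of the 4 mouse Hox clusters, taken from a table of 27179 gene IDs by matching NCBI gene IDs to mouse symbols. Hox genes encode homeodomain transcription factors that give cells of the embryo their position along the head-to-tail axis. Within a cluster the genes are numbered by paralog group. Low-numbered genes, at the 3′ end of the cluster, reach forward into the hindbrain, whereas high-numbered genes act in the spinal cord, the caudal trunk and the limbs. The forebrain and midbrain lie ahead of the Hox domain, and neurons of the adult hindbrain and spinal cord keep transcribing many of these genes.

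RNA was sequenced from 15 libraries of bulk brain tissue, labelled as hemispheres of mice aged 12 months. Homozygous transgenic animals (TG) overexpress human α-synuclein from the PLP promoter, which is active in the myelin-forming oligodendrocytes, and serve as a model of multiple system atrophy. Controls (WT) were age-matched and sex-matched C57Bl/6 mice without the transgene. There were 4 WT male, 4 WT female, 3 TG male and 4 TG female libraries, with totals of 15170772 to 35850998 counts. All sample titles of a group share the same leading number, which differs between groups. Whatever that number stands for cannot be told apart from genotype and sex. The labels name no cells or brain region within the hemisphere, and the p-values below measure only the spread between these libraries.

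The Hoxa cluster lies at chr6:52162417-52260880 (GRCm38) and holds 10 of the genes. Hoxb lies at chr11:96194316-96368254 with 10, Hoxc at chr15:102921131-103036856 with 9, and Hoxd at chr2:74668225-74765142 with 9. RefSeq promoter windows, the 250 bases before an annotated start on GRCm38.p6, were found for 22 of the 38 genes in 24 windows. The windows of Hoxa5 (chr6:52204588-52204837, minus strand), Hoxb8 (chr11:96281655-96281904, plus strand), Hoxc4 (chr15:103034145-103034394, plus strand) and Hoxd3 (chr2:74711743-74711992, plus strand) are shown because these members had the highest mean level in their clusters among the tested genes. The window of Hoxd10 (chr2:74691641-74691890, plus strand) is shown beside them because no library held a count of that gene. Each is written 5′ to 3′ on the gene's strand, and capitals mark CCAAT, the box bound by nuclear factor Y, and AGGTCA, the half-site of nuclear receptors such as the retinoic acid receptors, on either strand.

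Hoxa5: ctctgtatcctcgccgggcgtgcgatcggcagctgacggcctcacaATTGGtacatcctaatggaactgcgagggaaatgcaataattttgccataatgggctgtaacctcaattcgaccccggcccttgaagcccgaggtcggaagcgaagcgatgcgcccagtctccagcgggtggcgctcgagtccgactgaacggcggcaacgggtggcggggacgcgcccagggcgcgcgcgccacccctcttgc

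Hoxb8: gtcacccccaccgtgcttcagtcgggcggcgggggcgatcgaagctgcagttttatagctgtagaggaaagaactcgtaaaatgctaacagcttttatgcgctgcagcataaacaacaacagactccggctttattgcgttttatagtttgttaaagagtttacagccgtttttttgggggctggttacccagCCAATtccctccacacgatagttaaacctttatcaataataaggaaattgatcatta

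Hoxc4: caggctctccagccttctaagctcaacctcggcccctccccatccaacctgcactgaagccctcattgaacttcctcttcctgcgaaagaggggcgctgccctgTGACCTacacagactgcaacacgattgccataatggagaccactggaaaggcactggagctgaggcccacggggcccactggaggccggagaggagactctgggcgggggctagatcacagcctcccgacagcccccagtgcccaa

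Hoxd3: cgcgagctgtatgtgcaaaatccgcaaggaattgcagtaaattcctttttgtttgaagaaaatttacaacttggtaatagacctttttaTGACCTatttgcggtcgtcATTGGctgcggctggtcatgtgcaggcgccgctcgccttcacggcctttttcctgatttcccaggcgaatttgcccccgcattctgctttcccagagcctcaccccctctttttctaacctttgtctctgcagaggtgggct

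Hoxd10: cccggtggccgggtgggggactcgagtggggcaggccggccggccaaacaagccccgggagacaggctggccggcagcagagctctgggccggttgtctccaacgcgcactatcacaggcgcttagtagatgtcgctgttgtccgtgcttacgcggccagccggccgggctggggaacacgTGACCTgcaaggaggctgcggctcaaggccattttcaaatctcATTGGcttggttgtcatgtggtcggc

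CCAAT was found in 58.3% of the 24 Hox windows (14) and in 33.9% of all 32851 windows of that length. AGGTCA was found in 25.0% of the Hox windows (6) and in 14.02% of all windows. The silent Hoxd10 window held both motifs, as did that of Hoxd3. Median GC content was 56.4% in the windows of members that entered the test and 59.2% in those of members that did not, beside 52.4% over all windows. These matches are a description of the letters in the windows.

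Hox transcripts were abundant in 4 libraries, scarce in 1 and near absent in 10. Summed over the 38 genes, 13901 counts were found in WT male 3, 31597 in WT female 3, 16764 in TG female 1 and 11355 in TG female 4. These sums correspond to 569, 877, 1081 and 644 CPM (counts per 1e6 counts of the library, with library sizes scaled by TMM). TG female 3 held 355 counts, or 21.2 CPM. The remaining 10 libraries held 3 to 15 counts each, 84 in all among 182324769. The 4 libraries thus stood clear of the other 11, and they comprised 1 WT male, 1 WT female and 2 TG females. No TG male library was among them.

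**Figure D1:**
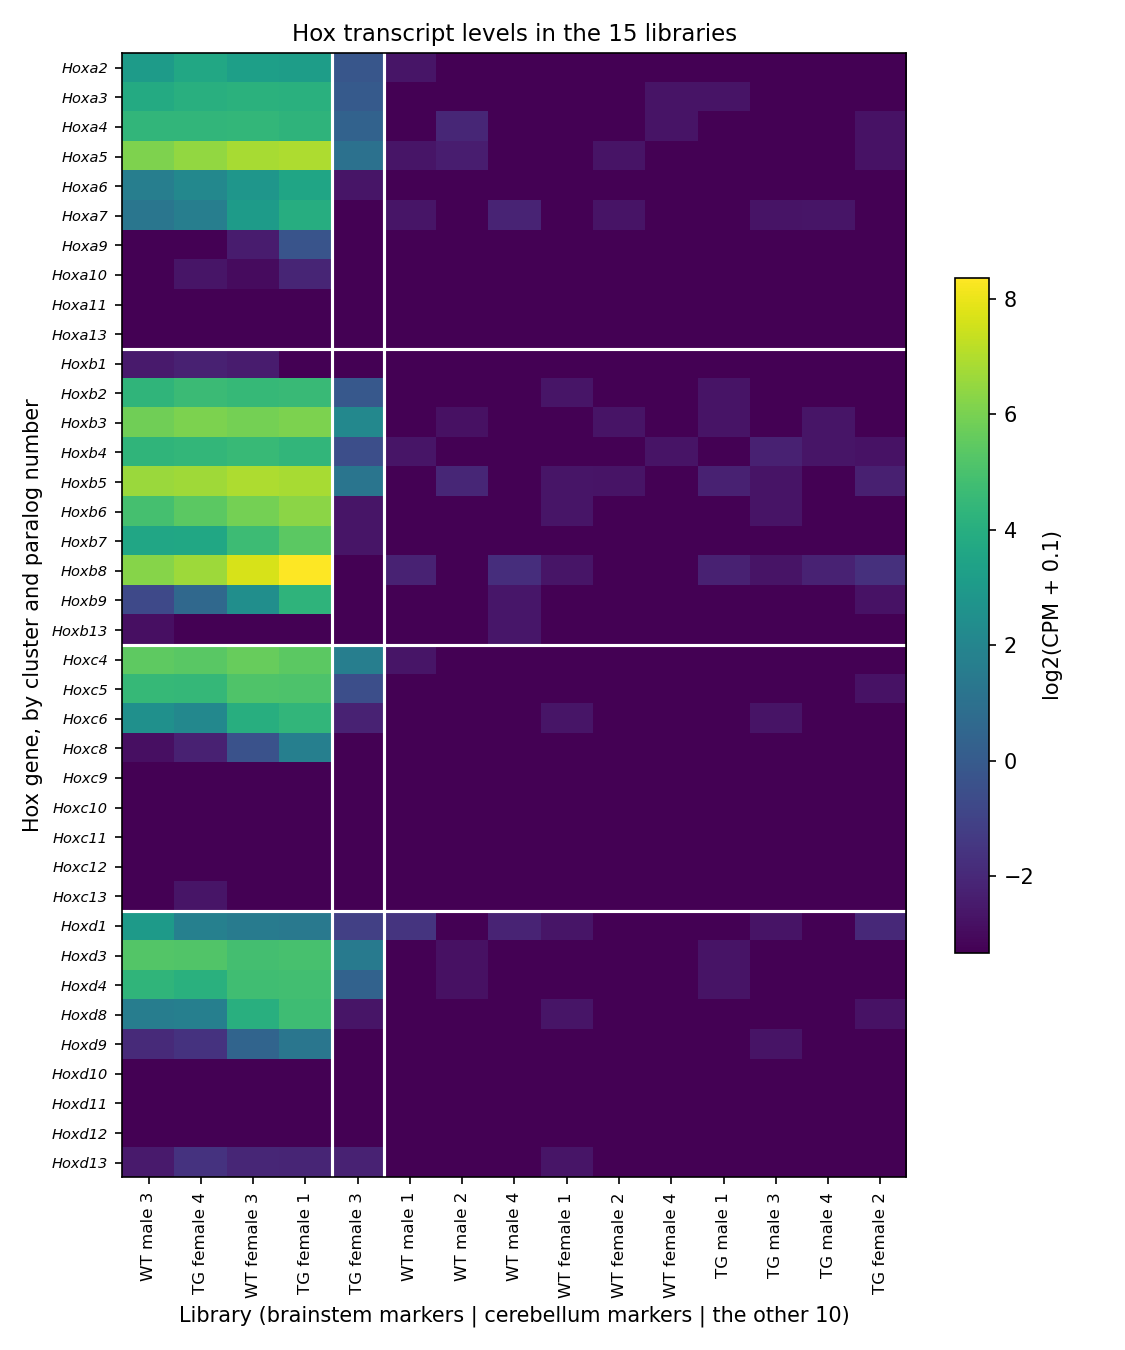
Level of each of the 38 Hox genes (rows, by cluster and paralog number) in each of the 15 libraries (columns), as log2(CPM + 0.1) in colour. The 4 libraries on the left carry between 20 and 23 members at 1 CPM or more, TG female 3 carries 7, and the 10 on the right carry 0.

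The same 4 libraries were set apart by brain region markers. Libraries were grouped into 4 classes on marker lists, none of which holds a Hox gene. The lists covered cortex, striatum, cerebellum, olfactory bulb, and brainstem together with spinal neurons. These 4 libraries formed the class with the highest score on the brainstem and spinal list. That list pools genes of both regions and does not tell them apart. Below, brainstem list and brainstem markers refer to it. Slc6a5, the glycine transporter of inhibitory brainstem and spinal neurons, lay at 61.9 to 103 CPM in them, whereas TG female 3 stood at 9.49 and the other 10 between 0 and 0.119. Slc17a7, the vesicular glutamate transporter of cortical excitatory neurons, ran the opposite way, at 63.9 to 88.7 CPM in the 4, 447 in TG female 3, against 643 to 1852 across the other 10. Of the 10 cortex genes, 4 were lower in all 4 libraries than in the other 11 and 0 were higher. Lamp5, also on the cortex list, overlapped, at 227 to 302 CPM in the 4 and 57.1 to 334 across the other 10. Gabra6, a receptor subunit of cerebellar granule cells, reached 701 CPM in TG female 3, and its highest level in any other library was 1.19. All 15 samples carry the label hemisphere. The levels of Slc6a5 and Slc17a7 did not overlap between the 4 libraries and the other 10, whereas those of Lamp5 and Gabra6 did.

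All 21 Hox members that passed the filter on low counts were higher in each of the 4 libraries than in any of the other 11, as were 23 of all 38. Among the 17151 genes tested, 12.5% were separated in that direction and 11.8% in the opposite one. Passing the filter required counts in several libraries, so that for members near 0 elsewhere it selected on these same libraries. The brainstem list followed the same division in 19 of 22 genes, with a summed 554 to 798 CPM against 25.1 to 98.4, but this list helped to form the class. The list of mature oligodendrocyte genes, which did not, was higher in all 4 for 10 of 10 genes, at a summed 17891 to 23178 CPM against 1889 to 5978. Mbp, the myelin basic protein, was at 10592 to 13223 CPM in the 4, at 3256 in TG female 3 and at 936 to 2917 elsewhere. Of the other lists, 3 of 9 spinal dorsal horn, 3 of 8 astrocyte, 2 of 8 microglia and 2 of 9 vascular genes were higher in all 4. The part of these cell types in the Hox levels was not tested, and in bulk tissue fewer cells of a type and less RNA per cell cannot be told apart.

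Among the low-numbered genes, paralog groups 1 to 5, 13 of 14 members reached 1 CPM in each of the 4 libraries. Hoxb1, which in the embryo marks the fourth rhombomere, was the exception with 7 counts in all 15 libraries. Hoxd1, the other group 1 member, was at 8.10 CPM in WT male 3, 2.83 in WT female 3, 2.52 in TG female 1 and 3.29 in TG female 4. WT male 3 was thus the highest library for Hoxd1, although it was the lowest for Hox transcripts as a whole. Hoxa2, a determinant of the second rhombomere and second pharyngeal arch, stood at 8.47, 9.50, 8.97 and 12.6 CPM in the same order of libraries. Hoxb2, its paralog, stood at 19.7, 22.6, 24.3 and 24.9 CPM.

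Group 3 and 4 genes, whose embryonic domains begin in the caudal hindbrain, varied less across the 4 libraries than those of groups 6 to 9. Hoxb3 was at 56.7, 61.1, 65.9 and 66.7 CPM in WT male 3, WT female 3, TG female 1 and TG female 4. Hoxd3 was at 37.6, 29.3, 31.0 and 35.97 CPM, and Hoxa3 at 14.2, 17.7, 17.0 and 16.3. Among group 4 genes, Hoxc4 lay at 43.6, 50.4, 43.0 and 41.2 CPM in that order. Hoxa4 stayed within 19.2 to 21.1 CPM and Hoxb4 within 19.6 to 23.4. Hoxd4 was less even, at 19.8 and 16.8 CPM in WT male 3 and TG female 4 and at 26.9 and 28.6 in WT female 3 and TG female 1.

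Group 5 held some of the most abundant members. Hoxa5, needed for the formation of the respiratory tract, was at 69.3 CPM in WT male 3, 112 in WT female 3, 121 in TG female 1 and 87.5 in TG female 4. Hoxb5 was at 96.2, 122, 115 and 103 CPM, and Hoxc5 at 22.9, 35.3, 34.1 and 22.0. For each of these 3 genes WT female 3 and TG female 1 were the 2 higher libraries.

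Levels of different genes were compared per kilobase of exon (RPKM, with exon lengths from GENCODE). Hoxb8 was highest, at a mean of 66.8 RPKM over the 4 libraries and a range of 28.5 to 125. It was followed by Hoxb5 at 57.6, Hoxa5 at 51.9, Hoxb6 at 27.1, Hoxb7 at 18.1, Hoxb3 at 17.8 and Hoxc4 at 17.4. Ranges of neighbours overlapped: Hoxa5 ran from 36.9 to 64.5 RPKM and Hoxb5 from 50.8 to 64.5. With lengths from the comprehensive annotation, Hoxb5 was at 39.2 RPKM and below Hoxa5, and Hoxb7 at 15.1 and Hoxb3 at 14.7 were below Hoxc4. The same change took Hoxb2 from 14.1 to 6.56 RPKM and Hoxa3 from 6.29 to 2.71. The Hoxb cluster supplied 54.5% of Hox counts in WT male 3 (95% Wilson interval 53.7 to 55.3), 59.6% in WT female 3 (59.0 to 60.1), 64.3% in TG female 1 (63.6 to 65.0) and 57.8% in TG female 4 (56.9 to 58.7). Such intervals cover counting error only.

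**Figure D2:**
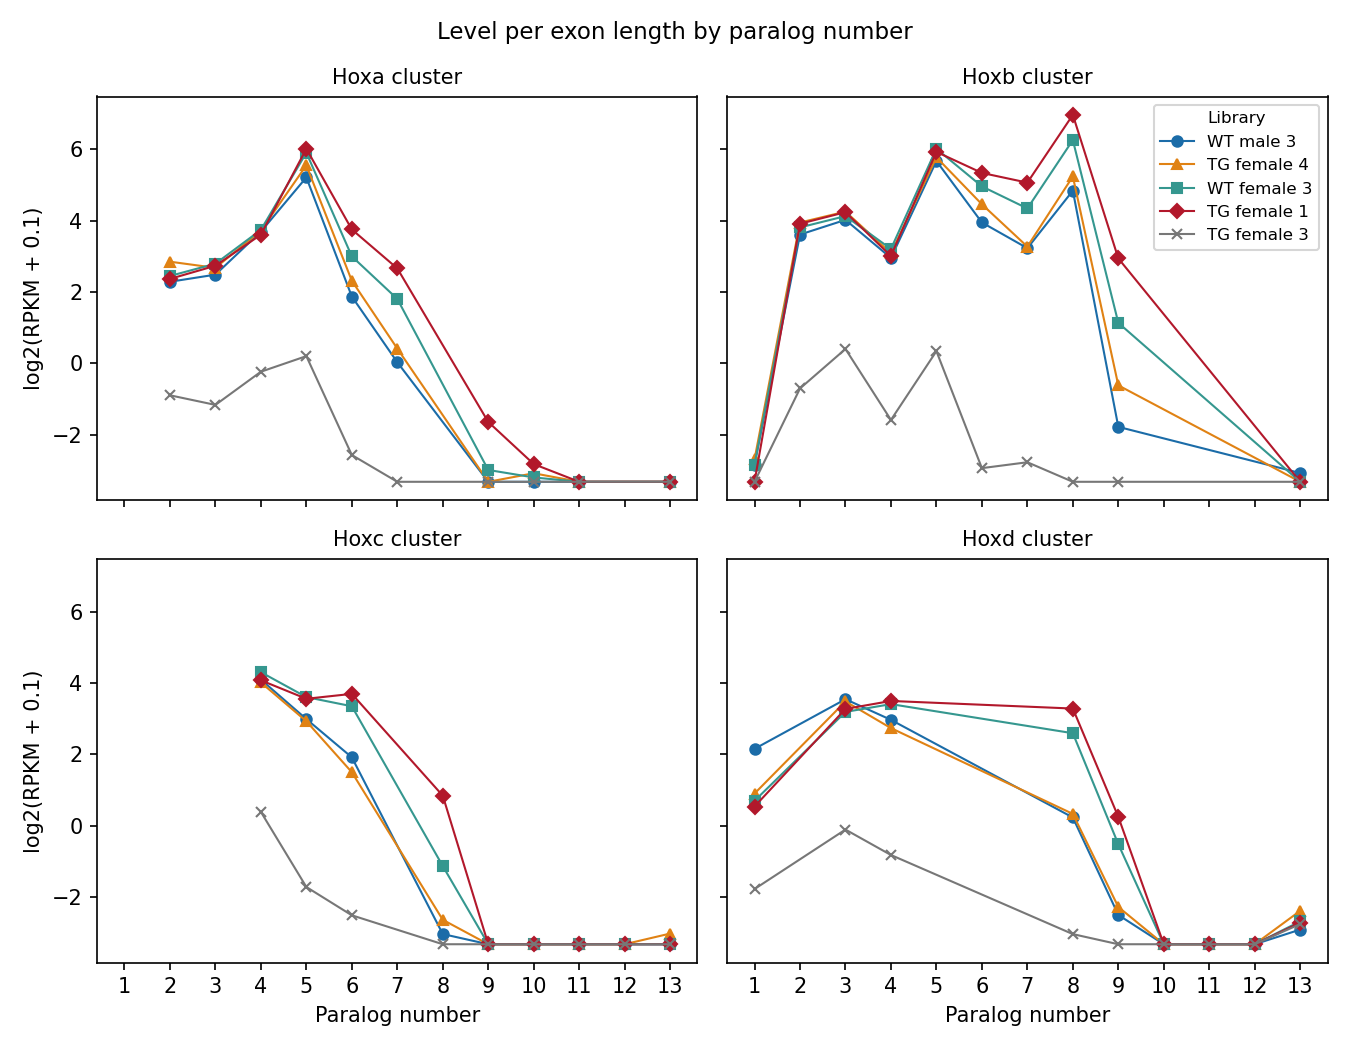
Level per exon length, log2(RPKM + 0.1), against paralog number in each cluster for the 4 libraries with brainstem markers and TG female 3 with cerebellum markers. From paralog 6 to 9 the 4 lines fan out with TG female 1 on top, Hoxd1 is highest in WT male 3 at 4.35 RPKM against 1.35 to 1.77 in the other 3, and every member from paralog 10 upward lies near the floor.

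The 4 libraries parted company in the middle of the clusters. Of the 12 members in paralog groups 6 to 9, 7 reached 1 CPM in all 4 libraries and 10 in at least 1. Hoxb8, which acts in the cervical and thoracic spinal cord and in haematopoietic cells, was at 75.1 CPM in WT male 3, 201 in WT female 3, 328 in TG female 1 and 99.1 in TG female 4. TG female 1 was highest and WT male 3 lowest for Hoxb8, a difference that no group 2 to 4 gene approached. Hoxb6 was at 30.1, 60.8, 79.1 and 42.9 CPM in the same order, Hoxb7 at 11.9, 26.0, 43.0 and 12.3, and Hoxa7 at 2.29, 8.44, 15.5 and 3.06. Hoxc6 followed at 5.81, 15.9, 20.3 and 4.31 CPM and Hoxd8 at 2.95, 16.3, 26.4 and 3.18. In each of these, WT female 3 and TG female 1 were above WT male 3 and TG female 4.

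Group 9 genes, which pattern the thoracic cord, were present mainly in the higher pair. Hoxb9 gave 12 counts in WT male 3, 194 in WT female 3, 302 in TG female 1 and 25 in TG female 4, or 0.491, 5.39, 19.5 and 1.42 CPM. Hoxd9 gave 4, 46, 36 and 4 counts. Hoxa9 gave 0, 3, 11 and 0 counts, so that its level is known only within wide counting error. Hoxc9 had no count in any library. Hoxc8, in group 8, gave 1, 24, 49 and 2 counts.

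Paralog groups 6 to 9 together supplied 23.2% of Hox counts in WT male 3 (95% Wilson interval 22.5 to 23.9) and 26.5% in TG female 4 (25.7 to 27.3). They supplied 39.1% in WT female 3 (38.5 to 39.6) and 50.9% in TG female 1 (50.1 to 51.6). The intervals of the 4 libraries did not overlap. Each genotype held 1 library with a low share and 1 with a high share.

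Setting the higher library over the lower within each genotype gave a ratio for 23 members, a choice of pairs made after the values were seen. The higher library was the one with the larger share from paralog groups 6 to 9, so that ratios above 1 in those groups, and part of the likeness of the 2 pairs, follow from the choice. In both pairs the ratio was larger at higher paralog numbers. For paralog groups 1 to 5 the median ratio was 1.16 for WT female 3 over WT male 3 and 0.989 for TG female 1 over TG female 4 (13 members). For groups 6 and 7 the medians were 2.22 and 3.49 (5 members), and for groups 8 and 9 they were 7.81 and 10.2 (5 members). Spearman's rho between paralog number and ratio was 0.936 in the WT pair and 0.935 in the TG pair over these 23 genes. The genes of a pair come from the same 2 libraries and neighbour each other in the clusters, so these are descriptions.

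Single genes showed the same course. The ratio was 0.779 and 0.863 for Hoxd3, 1.16 and 1.04 for Hoxc4, and 1.62 and 1.38 for Hoxa5 in the WT and TG pairs. It was 2.68 (exact counting interval 2.55 to 2.82) and 3.32 (3.139 to 3.502) for Hoxb8. For Hoxd8 it was 5.53 (4.32 to 7.16) and 8.32 (6.28 to 11.2), and for Hoxb9 it reached 10.98 (6.14 to 21.6) and 13.7 (9.12 to 21.6). Hoxd1 went the other way in the WT pair, at 0.350 (0.273 to 0.446), whereas in the TG pair its interval of 0.496 to 1.17 took in 1. The log2 ratios of the 2 pairs had a Pearson r of 0.961 across the 23 genes. The WT pair also differs in sex, so for that pair sex and the Hox ratio cannot be told apart. Both libraries of the TG pair are female.

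**Figure D3:**
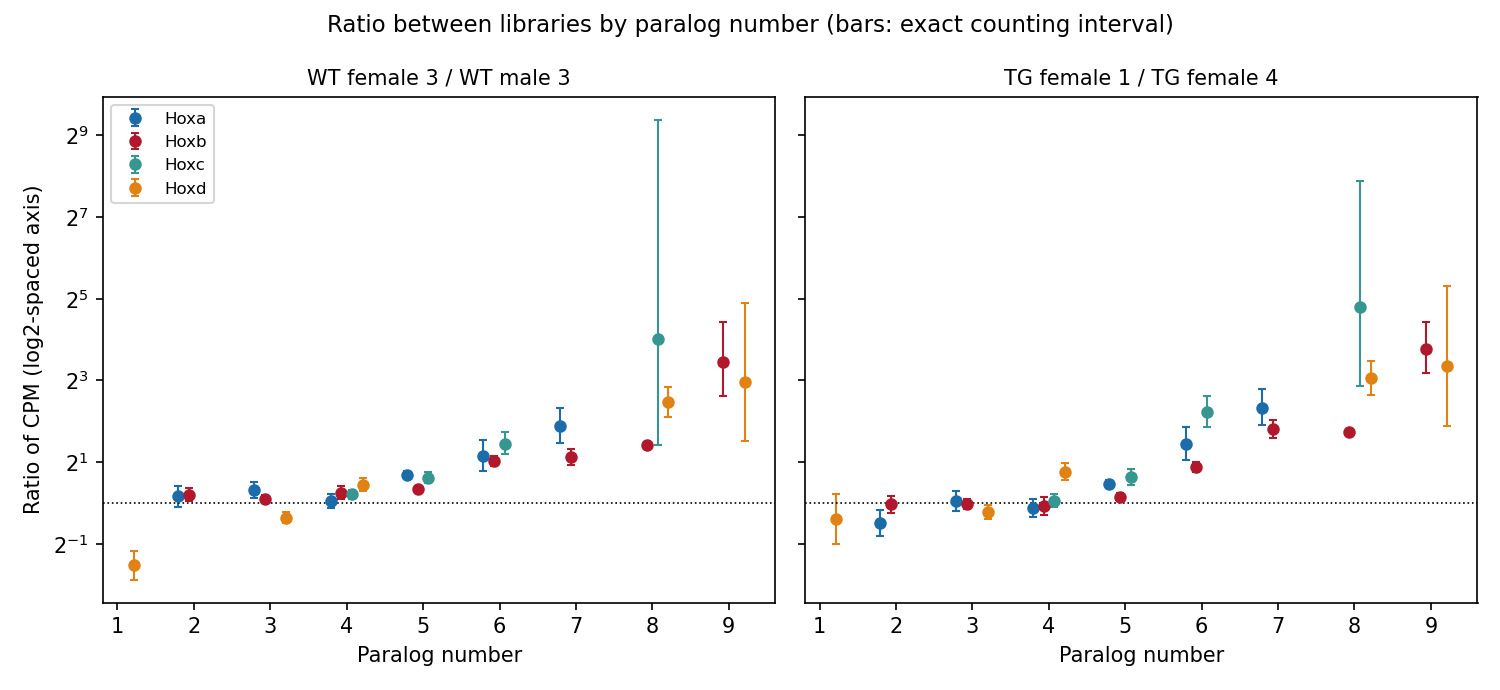
Ratio of CPM between 2 libraries of the same genotype (log2-spaced axis) against paralog number for 23 Hox genes, coloured by cluster, with 95% exact counting intervals as bars. Up to paralog 5 the points lie between 0.350 (Hoxd1) and 1.62 in the WT pair and between 0.712 and 1.71 in the TG pair, and in paralogs 8 and 9 they lie at 2.68 or more and 3.32 or more; Hoxc8, with the widest bars, rests on 1 and 2 counts in the lower libraries.

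Genes of the brainstem list, which also holds spinal genes, were read in the order set by that share, namely WT male 3, TG female 4, WT female 3 and TG female 1. Of the 22 brainstem genes, 7 were lower at every step and 2 were higher at every step. Over all 17151 tested genes, 5.98% were lower and 6.14% higher at every step. Tph2, which makes serotonin in neurons of the raphe, was at 127, 19.8, 14.997 and 9.10 CPM in that order. Slc6a4, the serotonin transporter, was at 54.8, 8.51, 5.05 and 3.48 CPM, and Fev, a transcription factor of serotonergic neurons, at 7.98, 2.10, 1.42 and 0.968. Gata2, Gata3, Tal1 and Lhx3, transcription factors of ventral interneurons and motor neurons, were the other genes lower at every step, with Gata3 at 11.2, 5.62, 1.25 and 0.516 CPM. Tlx3, a transcription factor of excitatory dorsal horn neurons, was at 1.72, 5.16, 5.92 and 9.22 CPM, and Lmx1b, needed for serotonergic and dorsal horn neurons, at 3.40, 3.97, 4.39 and 9.03. Each step rests on single libraries and was not tested. Nkx2-1, a gene of the hypothalamus and basal forebrain, was at 5.05 CPM in TG female 4 and at 0 in the other libraries of this set.

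The genes at the 5′ ends of the clusters were silent or nearly so. None of the 12 members in paralog groups 10 to 13 reached 1 CPM, and their highest single count was 5. Hoxd13, which patterns digits and the urogenital tract, had 16 counts over the 15 libraries, and Hoxa10 lay at no more than 0.129 CPM. Hoxa11, Hoxa13, Hoxc10, Hoxc11, Hoxc12, Hoxd10, Hoxd11 and Hoxd12, together with Hoxc9, had no count among 291710318. With 3 counts taken as the limit, that allows up to 0.0103 CPM for each over the 15 pooled libraries. Most of those counts come from libraries with few Hox transcripts. In single libraries of the 4 with high Hox levels, 3 counts equal 0.0833 (WT female 3) to 0.194 CPM (TG female 1).

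TG female 3, the library with cerebellum markers, held mainly the low-numbered genes. Hoxb3 was highest there at 4.30 CPM, followed by Hoxc4 at 3.10, Hoxd3 at 2.68, Hoxb5 at 2.21 and Hoxa5 at 1.97. The 13 members of groups 1 to 5 that reached 1 CPM in the 4 libraries stood at 2.02% to 8.55% of their mean there, and groups 1 to 5 summed to 4.19%. Groups 6 to 9 summed to 0.120% of that mean, from 6 counts, and Hoxb8 had 0 counts. Groups 10 to 13 gave 2 counts, both of Hoxd13. Groups 6 to 9 supplied 1.69% of the 355 Hox counts (Wilson interval 0.777 to 3.64), below the interval of each of the 4 libraries. This is 1 library, so no spread can be given.

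In the other 10 libraries the highest single count was 4, reached by Hoxb8 and by Hoxd1. With 3 counts corresponding to 0.0833 to 0.194 CPM in these libraries and the rest, single Hox genes were at or near the limit of detection. Some Hox counts cannot be given to a single gene with certainty. In the basic GENCODE annotation, exons of other genes overlap 79.3% of Hoxd3, 63.9% of Hoxb3 and 58.5% of Hoxb2. Whether the counting used strand is not given in the sources used here. In the same basic annotation no Hox member's exons overlap those of another member. The annotation behind the counts is not given, so this may not hold for it.

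The clusters also encode the miR-10 family, whose members lie beside the group 4 genes, miR-10a in Hoxb (chr11:96317186-96317208, plus strand) and miR-10b in Hoxd (chr2:74726074-74726096, plus strand). Their RefSeq mature sequences are shown because both loci were read in the same libraries as the Hox genes, with the seed, bases 2 to 8, in capitals.

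miR-10a-5p: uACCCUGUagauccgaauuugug

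miR-10b-5p: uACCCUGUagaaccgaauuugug

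Both carry the seed ACCCUGU and differ by U12A, counted from the 5′ end with the miR-10a base first. Reads at the Mir10a gene numbered 1 in WT male 3, 18 in WT female 3, 2 in TG female 1 and 4 in TG female 4, and reads at Mir10b 1, 7, 6 and 0. Both had 0 counts in the other 11 libraries. The libraries were not prepared for small RNA, so these reads do not measure the mature miRNA. Of 18 noncoding genes listed for the clusters 10 were in the table, and 0 passed the filter on low counts. Hoxaas3, an antisense RNA of the Hoxa cluster, lay at 0.245 to 1.16 CPM in the 4 libraries and at 0 in the other 11. Of the RNAs picked after their values were seen, Mira (chr6:52214491-52215288) was at 5.20 CPM in WT male 3, 13.6 in WT female 3, 27.9 in TG female 1 and 3.63 in TG female 4. It lies between Hoxa6 and Hoxa7, and for all 3 genes WT female 3 and TG female 1 were the higher libraries. The RNA 5730596B20Rik (chr6:52177155-52180851), inside the span of Hoxa3, was at 6.38, 9.55, 7.87 and 8.17 CPM.

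Of 18 genes listed as neighbours of the clusters, 2 were higher in all 4 libraries than in the other 11 and 1 was lower, beside 12.5% and 11.8% of all genes tested. Evx1, a homeobox gene next to Hoxa13 that specifies spinal V0 interneurons, was at 3.23 to 4.43 CPM in the 4, 0.298 in TG female 3 and at most 0.0554 elsewhere. Skap2, an adaptor protein gene at the 3′ end of Hoxa, was at 12.4 to 15.2, 6.26 and 2.53 to 5.72 CPM. Cbx1, a chromobox gene near Hoxb, was the lower one at 7.98 to 9.65 CPM against 10.1 to 14.9. The listed genes with high counts were Cbx5 and Hnrnpa1 near Hoxc and Hnrnpa3 on the chromosome of Hoxd, and all overlapped between the sets. Hnrnpa3 (chr2:75659105-75669407) is not adjacent to Hoxd, since Mtx2 lies between them.

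Hox proteins bind DNA with TALE homeodomain partners. Of 9 TALE genes, 0 were higher in all 4 libraries, beside the 12.5% of all genes. Meis2 lay at 70.4 to 143 CPM in the 4, 15.8 in TG female 3 and 68.7 to 703 elsewhere, and Meis1 at 25.0 to 29.3 CPM within a range of 2.24 to 54.5 elsewhere. Of 24 genes listed as regulators of Hox transcription in the embryo, the list of retinoic acid, Cdx and segmentation genes, 2 were higher, beside the same 12.5%. These were Gbx2, a gene of the anterior hindbrain, and Rxra, a retinoid receptor at 84.0 to 89.2 CPM against 21.2 to 53.8. Of 28 Polycomb and trithorax genes, which keep Hox genes silent or active, 8 were lower in the 4 libraries and 0 higher, beside 11.8% and 12.5% of all genes. Bmi1 was at 58.7 to 68.7 CPM against 77.9 to 157, and Kmt2a at 272 to 306 against 349 to 678. Among 20 other homeobox and axial genes, 4 were higher, namely Pax2, Pax8, Irx2 and Gbx2.

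The genes outside the clusters most like the Hox members over the 15 libraries were ranked by Pearson correlation of log2 CPM with the mean of the tested members. They were Pou4f2 (r = 0.995), Ankrd33 (0.994), Lhx4 (0.993), Pax8 (0.993), Evx1 (0.993), Glra1 (0.992), Ahnak2 (0.991), Hsd17b2 (0.990), Phox2a (0.988) and Lmx1b (0.987). The 15 points fall into a high set of 4, TG female 3 and a low set of 10, so the ranking describes that division. Lhx4, Glra1, Phox2a and Lmx1b are also on the brainstem list that formed the classes. Pou4f2, a POU homeobox gene of sensory neurons, was at 3.48 to 4.36 CPM in the 4 libraries and at most 0.537 elsewhere. Glra1, the adult glycine receptor subunit, was at 41.4 to 56.0 CPM in the 4 and 1.73 in TG female 3.

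The comparison the study was built on is TG against WT. Within each genotype the Hox genes spanned their full range. Hoxa5 had a lowest, median and highest level of 0, 0.0571 and 112 CPM in 8 WT libraries and of 0, 0.0507 and 121 CPM in 7 TG libraries. For Hoxb8 these values were 0, 0.0898 and 201 CPM in WT and 0, 0.115 and 328 CPM in TG. The genotypes overlapped throughout for both genes, and each held 2 libraries with high Hox levels.

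In edgeR's quasi-likelihood test with sex as a covariate, 0 of the 21 Hox members tested passed an adjusted p of 0.05, beside 0.111% of all 17151 genes (19 called). At an unadjusted p of 0.05 the Hox count was also 0, beside 314 of the 17151 genes. DESeq2, which gave no adjusted p for 2 members, called 0 beside 0.236% of all genes. Fold changes are log2 values, TG against WT, ± SE. This SE was back-calculated from the edgeR test, as the size of the fold change over the square root of the F statistic. It therefore restates the test and is approximate for genes with counts near 0 in most libraries. Fold changes were negative for 20 members and positive for Hoxb9, with a median of -1.15 beside -0.00 over all genes. SEs ran from 1.70 to 3.00, above the size of every Hox fold change. Hoxa5 had a log2 fold change of -1.46 ± 2.86, Hoxb8 -1.27 ± 3.00, Hoxc4 -1.51 ± 2.68 and Hoxd3 -1.14 ± 2.74. Hoxc5 and Hoxd1, the members with the smallest p, had -1.46 ± 2.49 and -1.06 ± 1.86, and each of these genes had an adjusted p of 0.999853.

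The sign depended on which libraries entered. Without WT male 3 the fold change of Hoxa5 was 0.75 and that of Hoxb8 0.96, and without WT female 3 they were 0.76 and 1.33. Without all 4 libraries with brainstem markers, 0 Hox members passed the filter, so no fold change was computed.

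With a term for the 4 library classes, the SEs shrank to between 0.19 and 1.01. The Hox count called was 0, beside 0.496% of all genes (85 called). At an unadjusted p of 0.05 it was also 0, beside 1440 of all 17151 genes. Of the 21 members 10 were positive and 11 negative, with a median log2 fold change of -0.01 and a range of -0.30 to 1.08. Hoxa5 stood at -0.12 ± 0.22, Hoxb8 at 0.26 ± 0.48, Hoxc4 at -0.26 ± 0.20, Hoxd3 at 0.22 ± 0.22, Hoxc5 at -0.30 ± 0.26 and Hoxd1 at -0.21 ± 0.59. The smallest adjusted p was 0.775. In this fit the Hox genes are compared mostly within the class of 2 TG and 2 WT libraries.

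**Figure D4:**
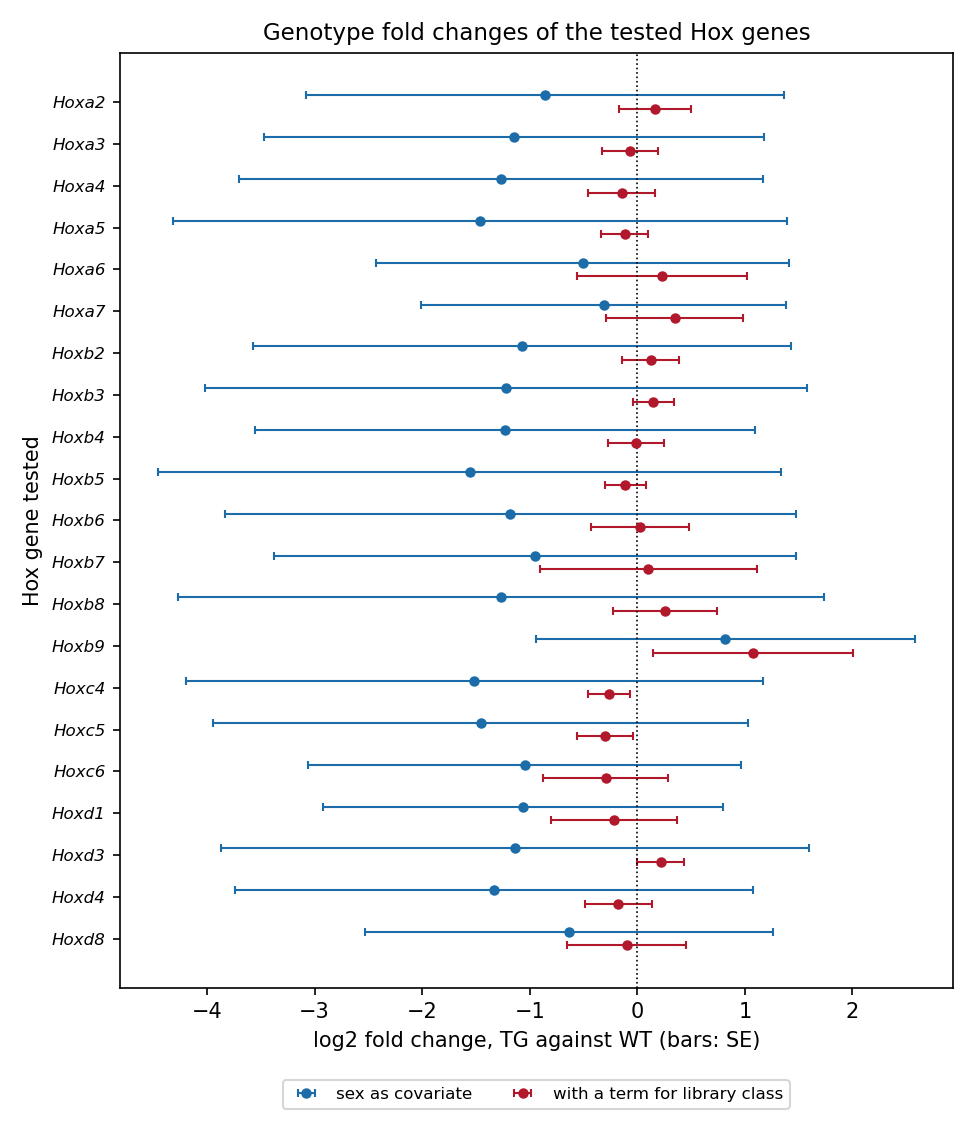
Log2 fold change for genotype, TG against WT, for the 21 tested Hox genes without (blue) and with (red) a term for library class. Bars are SEs back-calculated from the F statistic. Without the term the bars are 1.70 to 3.00 long on each side and cross 0 for every gene; with it they are 0.19 to 1.01 and the points lie from -0.30 to 1.08.

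Within those 4 libraries alone, 2 TG against 2 WT, edgeR tested 23 Hox members and called 0, beside 0.0661% of 16640 genes (11 called). At an unadjusted p of 0.05 the Hox count was 0, beside 1303 of those genes. This fit held no sex term. Both TG libraries are female, whereas the WT libraries are WT male 3 and WT female 3, so genotype and sex are partly mixed in it. The median log2 fold change was 0.20, from -0.88 for Hoxd1 to 2.01 for Hoxc8. Even members had narrow errors: Hoxb3 was at 0.18 ± 0.08 with the smallest p of the set and an adjusted p of 0.652, Hoxb5 at 0.00 ± 0.12 and Hoxd3 at 0.01 ± 0.14. Members of groups 8 and 9 had wide ones, Hoxb8 at 0.63 ± 0.96 and Hoxb9 at 1.75 ± 1.88.

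Within the sexes the division of libraries was uneven. Among females, 2 of 4 TG and 1 of 4 WT libraries had high Hox levels. There edgeR called 0 Hox members beside 0.0466% of all genes, and DESeq2 called 0 beside 0.117%. At an unadjusted p of 0.05 edgeR counted 0 Hox members, beside 601 of all 17151 genes. All 21 fold changes were positive there, with a median of 0.99. Among males, 0 of 3 TG and 1 of 4 WT libraries had high levels. edgeR called 0 Hox members, beside 0.00583% of all genes. At an unadjusted p of 0.05 it counted 1 of the 21 Hox members, beside 430 of all 17151 genes. DESeq2 called 9 Hox members, beside 0.241% of all genes (41 called). These 9 were the tested members with 0 counts in all 3 TG male libraries. Each of the other tested members had 1 or 2 counts in at least 1 of those libraries, and none of them was called. All 21 were lower in TG males, and because TG males lay near 0 no fold is given. For the genotype-by-sex interaction, edgeR called 0 Hox members, beside 0% of all genes, and DESeq2 called 2 Hox members beside 0.0293% (5 called). The edgeR count at an unadjusted p of 0.05 was 1 of the 21 Hox members, beside 698 of all 17151 genes. WT male 3 was the only male library with high Hox levels. DESeq2 was not run without it, so its part in both sets of DESeq2 calls was not tested.

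No gene of these related lists was called for genotype in the fit with sex. In edgeR 0 genes were called among 16 tested cluster neighbours, 9 TALE genes, 28 Polycomb and trithorax genes and 19 other axial genes, with 0 at an unadjusted p of 0.05, and DESeq2 called 0. Over all 17151 genes, edgeR called 0.111% and counted 314 at an unadjusted p of 0.05, and DESeq2 called 0.236%. At such shares, 0 calls in lists of 9 to 28 genes do not set these lists apart. Median log2 fold changes were -0.03 for the neighbours, -0.04 for the TALE genes, 0.12 for the Polycomb and trithorax genes and -0.41 for the axial genes.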

How the data were processed

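Counts per gene were deposited by the authors as 1 table of whole numbers for 15 libraries. The submitters' processing notes name STAR 2.7.5b, featureCounts, Subread and the build GRCm38. Per the labels, libraries came from 250 ng of total RNA with ribosomal RNA removed, from a stranded kit, read as 100 bp pairs. The annotation, strand setting and treatment of reads with several matches are not given in the sources used here. NCBI IDs were matched to RefSeq symbols for 25275 of 27179 IDs and through GENCODE for 18 more, and 1886 had none.

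Genotype was tested with edgeR 4.0.16 under R 4.3.3 (TMM, filterByExpr over the 4 genotype-by-sex groups, robust quasi-likelihood F test, Benjamini-Hochberg adjustment over all 17151 genes at 0.05). All 15 libraries entered with sex as a covariate, and within-sex and interaction contrasts came from 4 group means. CPM uses TMM-scaled totals, and RPKM divides it by basic GENCODE vM21 exon length. Library classes came from Ward clustering of mean log2(CPM + 0.5) of 5 marker lists, cut into 4. Alternatives were DESeq2 1.42.0, other size factors and filters, a replicate block, the class term, subsets of libraries, other exon lengths and each library left out. The fit was tested on simulated counts. Named genes were, per cluster, the tested member with the highest mean CPM, the 2 tested members with the smallest p, up to 4 genes per related list, and the 10 genes most alike in pattern. Other genes of the lists were named after their values were seen, because they stood apart. The members, lists and library classes were chosen with earlier results of these data known.

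Library totals had a median of 17635366 counts, and 3 counts equal 0.0833 to 0.194 CPM. Every pair of libraries differed by more than sampling noise (lowest chi-square per gene 6.34). Some results of the related gene lists are not reported here.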

Additional observations from a re-analysis of the deposited data

Results flagged for a closer look

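Within the groups of 4 libraries, 1 library stood far above its group in both WT sexes. WT female 3 did so for the summed Hox level (877 CPM), Hoxa5 (112 CPM), Hoxb8 (201 CPM), Hoxc4 (50.4 CPM), Hoxc5 (35.3 CPM), Hoxd3 (29.3 CPM) and Hoxd1 (2.83 CPM). WT male 3 did so for the summed Hox level (569 CPM), Hoxa5 (69.3 CPM), Hoxb8 (75.1 CPM), Hoxc4 (43.6 CPM), Hoxc5 (22.9 CPM), Hoxd3 (37.6 CPM) and Hoxd1 (8.10 CPM). In each case Dixon's ratio was above its 95% critical value, which chance exceeds in about 1 in 20 groups. The 14 values are not independent, since they come from 2 libraries. In TG females 2 of 4 libraries were high, so neither stood alone, and the group of 3 TG males was not examined.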

How the results depend on the processing

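The edgeR count of Hox members called for genotype was 0 under every alternative run, except that without the 4 libraries with brainstem markers no member passed the filter. The count of all genes called for genotype (19) was 40 with DESeq2, 85 with the class term and 11 in the 4 libraries alone, and for females (8) it was 20 with DESeq2, 4 with no filter, 4 with the replicate block, 21 with the class term, 1 without the 4 libraries and 1 to 7 with 1 library left out (1 without TG female 1 or TG female 4). For males (1) it was 41 with DESeq2, 46 with the class term and 1 to 2 with 1 library left out. The DESeq2 calls in males held 9 Hox members, those tested with 0 counts in every TG male library. For the interaction (0) DESeq2 called 5 genes and 2 Hox members. The Hox median of -1.15 became 2.52 with the replicate block, and ran from -2.02 to 0.88 with 1 library left out.

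Signs turned with the replicate block for Hoxa5 (2.85), Hoxb8 (3.42), Hoxc4 (2.90), Hoxd3 (2.86), Hoxc5 (2.88) and Hoxd1 (0.72). They turned with the class term for Hoxb8 (0.26) and Hoxd3 (0.22), and in the 4 libraries alone for Hoxa5 (0.20), Hoxb8 (0.63) and Hoxd3 (0.0146). With 1 library left out the log2 fold change ran from -2.58 to 0.76 for Hoxa5, -2.67 to 1.33 for Hoxb8, -2.51 to 0.70 for Hoxc4, -2.20 to 1.16 for Hoxd3, -2.30 to 0.65 for Hoxc5 and -1.76 to 0.43 for Hoxd1. The positive values came without WT male 3 or, except for Hoxd1, WT female 3. The cause was not tested. Whether replicate numbers pair the libraries could not be decided. Correlations of deviations from group means ran from -0.65 to 0.93 over 21 same-numbered pairs, the highest between WT male 3 and WT female 3. The groups mix library classes, so these deviations also carry the differences between classes. The class term and the replicate block changed no Hox call. Exon lengths of the comprehensive annotation lowered Hoxb2 to 6.56, Hoxa3 to 2.71, Hoxb5 to 39.2, Hoxb3 to 14.7 and Hoxd3 to 7.98 RPKM, moves larger than the SD over the 4 libraries. Depth limits statements on the 10 libraries with 3 to 15 Hox counts.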
